A study of Mus musculus with 96 samples.

Results

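The genes described here are 30 members of fatty acid oxidation, taken as the rows of the deposited gene table whose gene name is on a given list. All 30 were found among 56941 gene rows. Bulk RNA-seq libraries came from 2 month-old mice of WT genotype and of 4 further genotypes, 4Fj, 4FsB, 4Fk and 4FsA. In those 4 reprogramming factors can be induced in the living animal. Kidney, liver and skeletal muscle had 15 libraries each, 3 per genotype, and heart had 14, with 2 of WT. Small intestine, brain and spleen are used only to place the levels. Whether the animals had been given an inducer is not given in the sources used here. The table names a library by its tissue and a running number and by no genotype, so no strain is compared with WT and every spread mixes the 5 genotypes. The labels do not say whether tissues came from the same animals, and p-values measure only the spread between these libraries.

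Fatty acids are activated to acyl-CoA and carried into mitochondria as carnitine esters. A spiral of dehydrogenation, hydration, a second dehydrogenation and thiolysis then removes acetyl-CoA units, and electrons pass through the electron transfer flavoprotein to the respiratory chain. Peroxisomes run a parallel spiral on very long, branched and dicarboxylic acyl chains and pass shortened products on. Heart and oxidative muscle burn fatty acids for contraction, the kidney proximal tubule uses them for transport work, and liver feeds them into ketone bodies.

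Levels are CPM, the estimated count of a gene per 1000000 counts of its library. Library totals in the 4 compared tissues ran from 6624470 to 17706700. Each tissue carried its own markers, with a median of at least 1 CPM for every one. These were 6 proximal tubule markers in kidney, 6 hepatocyte markers in liver, 5 cardiomyocyte markers in heart and 5 fast fibre markers in skeletal muscle. This level does not show that a tissue was free of other cells. In kidney all 6 hepatocyte markers also reached it, at a summed median of 1607 CPM beside 76407 in liver. So did all 5 adipocyte markers in skeletal muscle. In heart 3 of 5 fast fibre markers also reached 1 CPM, which does not tell whether heart muscle or other cells made them. Transcripts encoded by the mitochondrial genome took 10.1% to 45.5% of counts in kidney, 3.75% to 33.0% in liver, 29.6% to 40.2% in heart and 4.67% to 43.4% in skeletal muscle. Heart libraries 13 and 14 were at the top of the heart range, at 40.2% and 38.6%, and 1 of them was the lowest heart library for 11 of 12 genes of the mitochondrial spiral. In bulk tissue, fewer cells of a type and less RNA per cell cannot be told apart.

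The mitochondrial members were highest in heart and most peroxisomal members were highest in kidney or liver. Of the 30 members, heart had the highest median of the 7 tissues for 11 of 12 genes of the mitochondrial spiral, 4 of 5 of the carnitine shuttle, 3 of 3 of electron transfer, and Acsl1. By plain CPM, kidney led for Crot, Ehhadh, Acaa1b, Pex11a, Abcd3 and Slc27a2, and liver led for Eci2, Acox2 and Hsd17b4. The lead of kidney over liver was slight for Abcd3, at 258.9 and 258.2 CPM. On the TMM scale of the tests below, kidney minus liver was negative and not called for Crot and Acaa1b. Acaa1a was highest in small intestine and Abcd2 in brain. Among the 19 genes led by heart, the heart range lay wholly above that of the tissue next in order only for Acadvl and Cpt1b. A low heart library alone can make such ranges overlap. Separate ranges were not counted over all genes, so whether this is few or usual is not known.

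**Figure D1:**
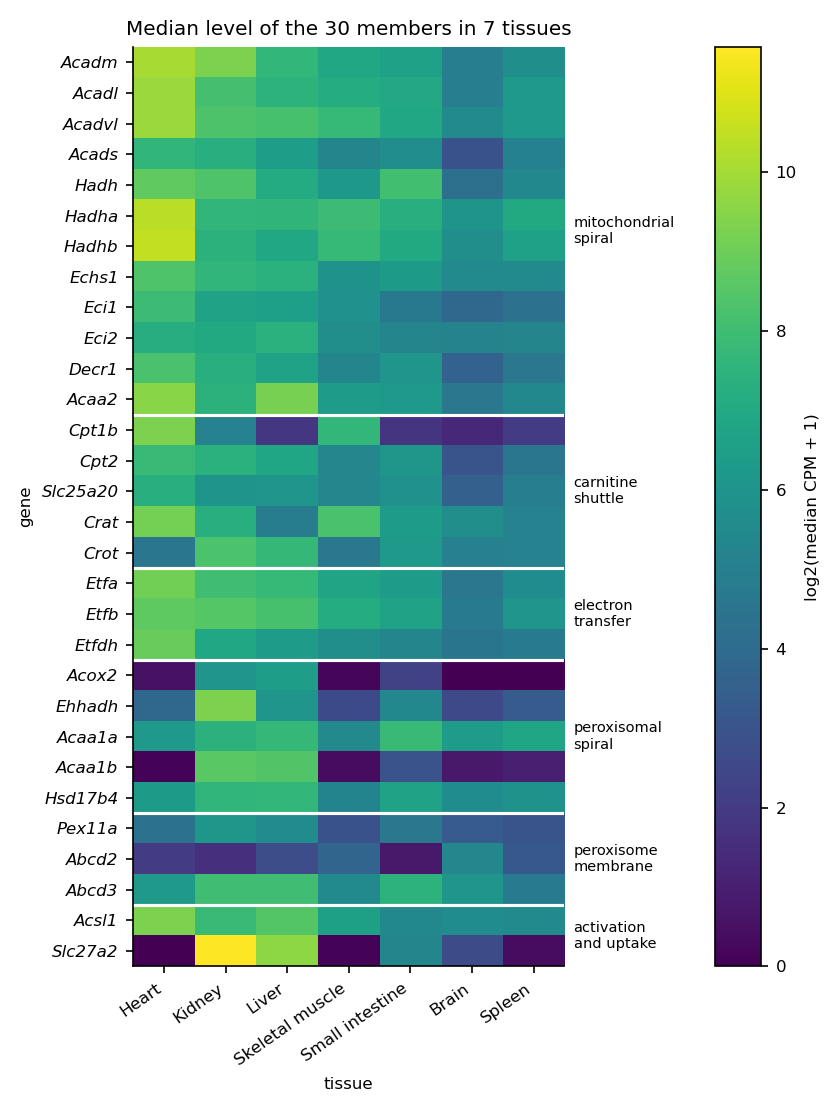
Colour gives log2(median CPM + 1) of each of the 30 members (rows, grouped by role) in each of 7 tissues (columns). The heart column is brightest from Acadm to Etfdh except for Eci2 and Crot, and the kidney and liver columns are brightest for Ehhadh, Acaa1b and Slc27a2.

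Pairwise tests used edgeR's quasi-likelihood test with Benjamini-Hochberg adjustment over 15720 genes, and a gene is called at an adjusted p of 0.05 or less. Between tissues this large share of genes is called that only direction and size separate the members from the rest. In kidney against heart, 9 members were higher in kidney and 20 in heart, while 31.9% and 29.8% of all genes were called in those directions. In liver against heart, 10 were higher in liver and 16 in heart, beside 37.9% and 32.4% of all genes. In heart against skeletal muscle, 22 were higher in heart and 3 in skeletal muscle, beside 29.5% and 28.5%.

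Kidney and liver were closer. There 6 members were higher in kidney and 12 in liver, beside 27.8% and 29.7% of all genes. In kidney against skeletal muscle, 14 members were higher in kidney and 6 in skeletal muscle, beside 37.9% and 33.1%. In liver against skeletal muscle, 21 were higher in liver and 4 in skeletal muscle, beside 38.5% and 33.6%. The median log2 difference of the members was -0.82 for kidney minus heart, where the median of all genes was 0.03, and 1.33 for heart minus skeletal muscle, where it was also 0.03.

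These differences are on the TMM scale, which sets the bulk of genes level between tissues. Against plain library totals, TMM moved all log2 differences by -0.58 for kidney minus liver, -0.48 for kidney minus heart, -0.99 for kidney minus skeletal muscle, 0.10 for liver minus heart, -0.41 for liver minus skeletal muscle and -0.51 for heart minus skeletal muscle. On totals alone, 9 members were higher in kidney and 3 in liver, beside 7302 and 2094 of all 15720 genes. Kidney against skeletal muscle then gave 25 members higher in kidney and 3 in skeletal muscle, beside 9701 and 2128 of all genes. Of the 15 genes of the mitochondrial spiral and electron transfer, 15 were called higher in heart than in kidney under TMM and 10 on totals. Beside them, 4686 and 2718 of all genes were called in that direction. The calls lost there were those of Acadm, Acads, Hadh, Eci2 and Etfb. Against skeletal muscle, 4 of these 15 were higher in kidney and 3 lower under TMM, and 13 were higher and 0 lower on totals. Of the 8 genes of the peroxisomal spiral and membrane, 7 were higher in kidney than in heart and in skeletal muscle on both scales. On totals, 7394 of all genes were also higher in kidney than in heart. The share of called genes that were higher in the first tissue went, from TMM to totals, from 48.4% to 77.7% for kidney against liver, from 51.7% to 73.1% for kidney against heart and from 53.4% to 82.0% for kidney against skeletal muscle. For liver against skeletal muscle it went from 53.4% to 65.4%, and for heart against skeletal muscle from 50.9% to 73.8%.

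**Figure D2:**
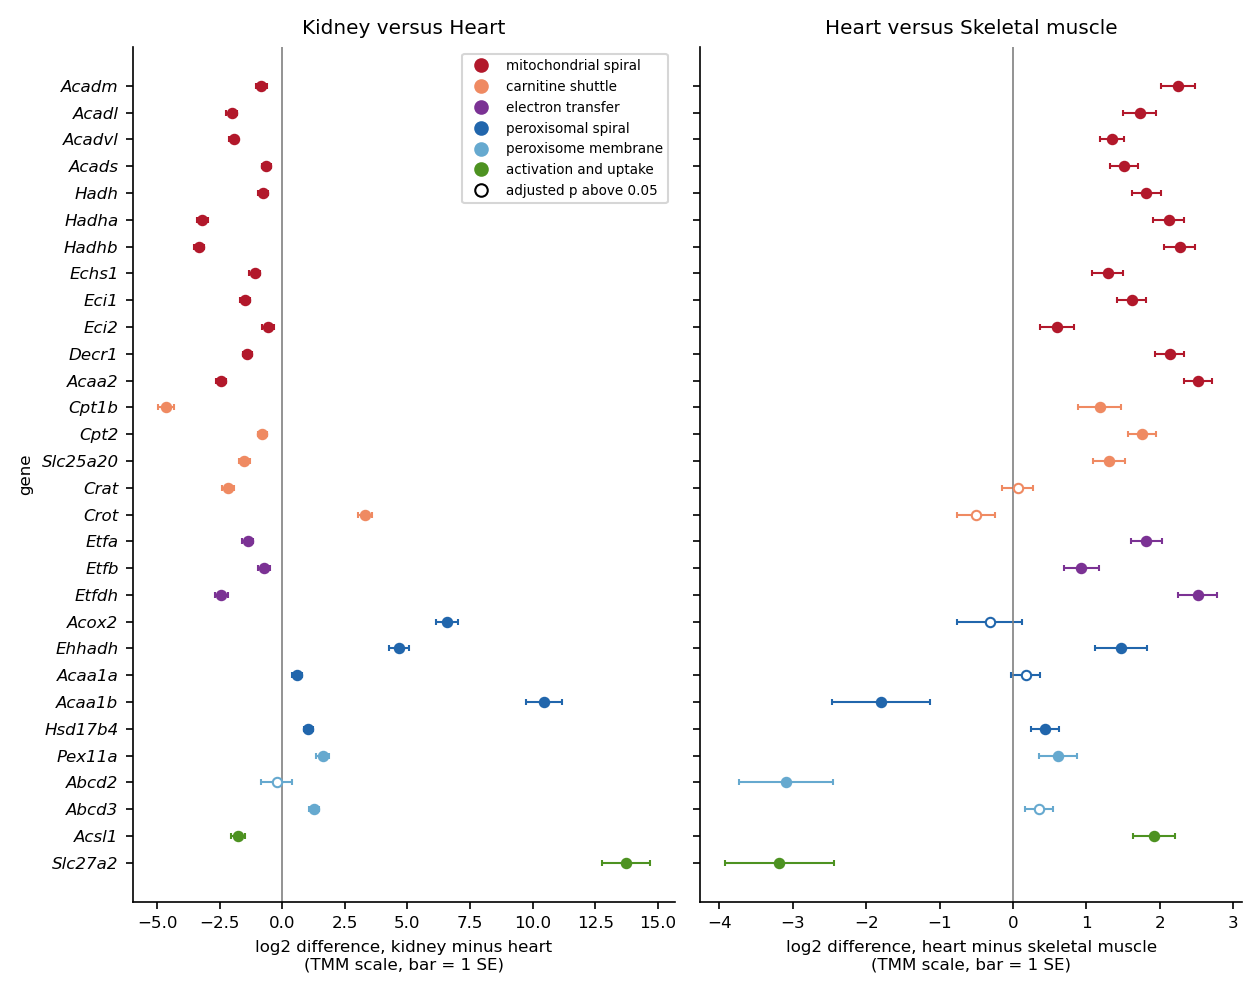
Log2 differences on the TMM scale with 1 SE for the 30 members, kidney minus heart on the left and heart minus skeletal muscle on the right, coloured by role, with open points where the adjusted p is above 0.05. Mitochondrial members lie left of 0 in the first panel and right of 0 in the second, and the peroxisomal spiral lies right of 0 in the first panel.

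All 12 genes of the mitochondrial spiral were called higher in heart than in kidney and than in skeletal muscle under TMM. In skeletal muscle the 5 markers listed as fast fibre, Myh4, Acta1, Ckm, Tnnt3 and Tnni2, had a summed median of 108507 CPM. The 4 listed as slow or oxidative fibre had 111 CPM. Of the fast list, 3 genes also reached a median of 1 CPM in heart, so these sums do not give shares of fibre types. The part of fibre type in the difference was not tested. Acadm encodes the medium-chain acyl-CoA dehydrogenase. Its CPM was 189 at the lowest, 1055 at the median and 1210 at the highest in heart, 252, 628 and 1054 in kidney, 107, 201 and 368 in liver, and 60.8, 123 and 329 in skeletal muscle. The heart and kidney ranges overlapped through heart libraries 13 and 14, at 189 and 257 CPM, while the other 12 heart libraries lay at 598 or more. Acadm was 0.84 ± 0.22 (SE) lower on the log2 scale in kidney than in heart (log2 difference -0.84, edgeR adjusted p = 0.000869; on totals -0.35 ± 0.24, adjusted p = 0.198) and higher in kidney than in liver by 1.07 ± 0.22 (edgeR adjusted p = 3.44e-05).

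Hadha and Hadhb encode the alpha and beta subunits of the mitochondrial trifunctional protein, which runs the last steps of the spiral on long chains. Hadha had 379, 1326 and 1979 CPM as the lowest, median and highest heart library, against 70.8, 198 and 324 in kidney, 81.3, 191 and 352 in liver and 70.2, 241 and 458 in skeletal muscle. Every heart library lay above every kidney and liver library, and the other tissues overlapped one another. Kidney minus heart was -3.20 ± 0.22 for Hadha and -3.32 ± 0.22 for Hadhb (edgeR adjusted p = 6.91e-20 and 7.58e-21). Per kilobase of merged exons, the median level in heart was 330 CPM for Hadha and 692 CPM for Hadhb, the 2 subunits of one complex.

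The 2 genes lie head to head on mouse chromosome 5, on opposite strands, with 273 bases between the start sites in RefSeq's GRCm38.p6 annotation, so the window before Hadhb lies between the start sites of both genes. It is shown for that position. The 250 bases before the Hadhb start, chr5:30155003-30155252 on the plus strand, are printed with 2 GC boxes (GGGCGG, either strand) in capitals.
Hadhb: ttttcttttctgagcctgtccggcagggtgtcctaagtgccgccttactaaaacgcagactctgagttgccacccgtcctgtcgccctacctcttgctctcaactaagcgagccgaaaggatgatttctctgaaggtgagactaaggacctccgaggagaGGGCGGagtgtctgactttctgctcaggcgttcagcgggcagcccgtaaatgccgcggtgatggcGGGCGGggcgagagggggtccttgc
A GC box was found in the windows of 15 of the 24 members that have an entry (62.5%) and of 35.4% of all 27025 genes with one. Over the libraries of a tissue, Hadha and Hadhb, as log2(CPM + 1) without mitochondrially encoded counts, rose and fell together, with Pearson r of 0.93 and Spearman rho of 0.90 in kidney, 0.91 and 0.87 in liver, 0.98 and 0.97 in heart and 0.86 and 0.82 in skeletal muscle (n = 15, 15, 14 and 15; permutation p from 1e-05, the smallest that these permutations can give, to 0.00038). Adjusted over 8 such relations, the highest of these p was 0.00076. Without the 2 libraries farthest from the median Hadha level, r was 0.85, 0.81, 0.97 and 0.78. Many members shared their extreme libraries: kidney library 15 was the lowest for 22 of 30. Apart from Etfa with Etfb, other member pairs were not correlated. Whether Hadha and Hadhb moved together more than other pairs was therefore not tested. The median ratio of Hadhb to Hadha CPM was 1.01 in heart, 0.921 in kidney and 0.952 in skeletal muscle, and 0.566 in liver, where it ran from 0.481 to 0.914.

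Acadl and Acadvl, the long-chain and very-long-chain dehydrogenases, had heart medians of 901 and 924 CPM. Acadvl in heart, from 582 to 1169 CPM, lay above all kidney (146 to 555), liver (176 to 492) and skeletal muscle libraries (145 to 407). Between kidney and skeletal muscle the Acadvl call turned with the scale: -0.59 ± 0.16 under TMM (edgeR adjusted p = 0.00121) and 0.39 ± 0.17 on totals. Acads, the short-chain dehydrogenase, had medians of 193 CPM in heart, 158 in kidney, 87.4 in liver and 38.1 in skeletal muscle.

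Acaa2, the mitochondrial thiolase that ends the spiral, followed another order, with liver beside heart. Its lowest, median and highest CPM were 483, 740 and 859 in heart, 268, 584 and 796 in liver, 79.8, 174 and 338 in kidney and 26.0, 82.0 and 168 in skeletal muscle. Heart and liver overlapped and did not pass the test (liver minus heart -0.09 ± 0.18, edgeR adjusted p = 0.658). Kidney minus liver was -2.35 ± 0.19 (edgeR adjusted p = 4.01e-17). Eci2, an enoyl-CoA isomerase found in both organelles, also had similar medians in liver and heart, 167 and 148 CPM, and did not pass that test (edgeR adjusted p = 0.28).

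The remaining spiral genes followed heart, kidney, liver and skeletal muscle in falling order of medians: Hadh, the 3-hydroxyacyl-CoA dehydrogenase, at 427, 337, 140 and 72.2 CPM, and Decr1, the dienoyl-CoA reductase for unsaturated chains, at 301, 157, 102 and 38.8 CPM. Echs1, the short-chain hydratase, had medians of 337, 198, 166 and 61.3 CPM, and Eci1, a mitochondrial enoyl-CoA isomerase, 245, 102, 91.5 and 56.2 CPM. Heart against kidney and heart against skeletal muscle passed the test for each of these 4, while the ranges of heart and kidney overlapped.

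Acadm's window is shown because it is 1 of 4 members, with Acadvl, Echs1 and Slc27a2, whose 250 bases hold the nuclear receptor half-site AGGTCA on either strand. That is 16.7% of 24 members, beside 15.8% of all genes. The longer ERR element TCAAGGTCA and the PPAR DR1 element, the half-site repeated with 1 base of any kind between the copies, were searched on both strands and overlap the half-site. They were in 0 of 24 windows and in 0.422% and 0.0407% of all genes. The half-site is in capitals in the Acadm window, chr3:153944644-153944893 on the minus strand (GRCm38.p6).
Acadm: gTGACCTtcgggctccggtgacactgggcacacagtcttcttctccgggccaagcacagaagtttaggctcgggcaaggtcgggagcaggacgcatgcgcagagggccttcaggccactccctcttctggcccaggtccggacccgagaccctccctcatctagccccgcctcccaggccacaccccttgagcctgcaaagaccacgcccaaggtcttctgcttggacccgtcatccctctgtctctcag

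**Figure D3:**
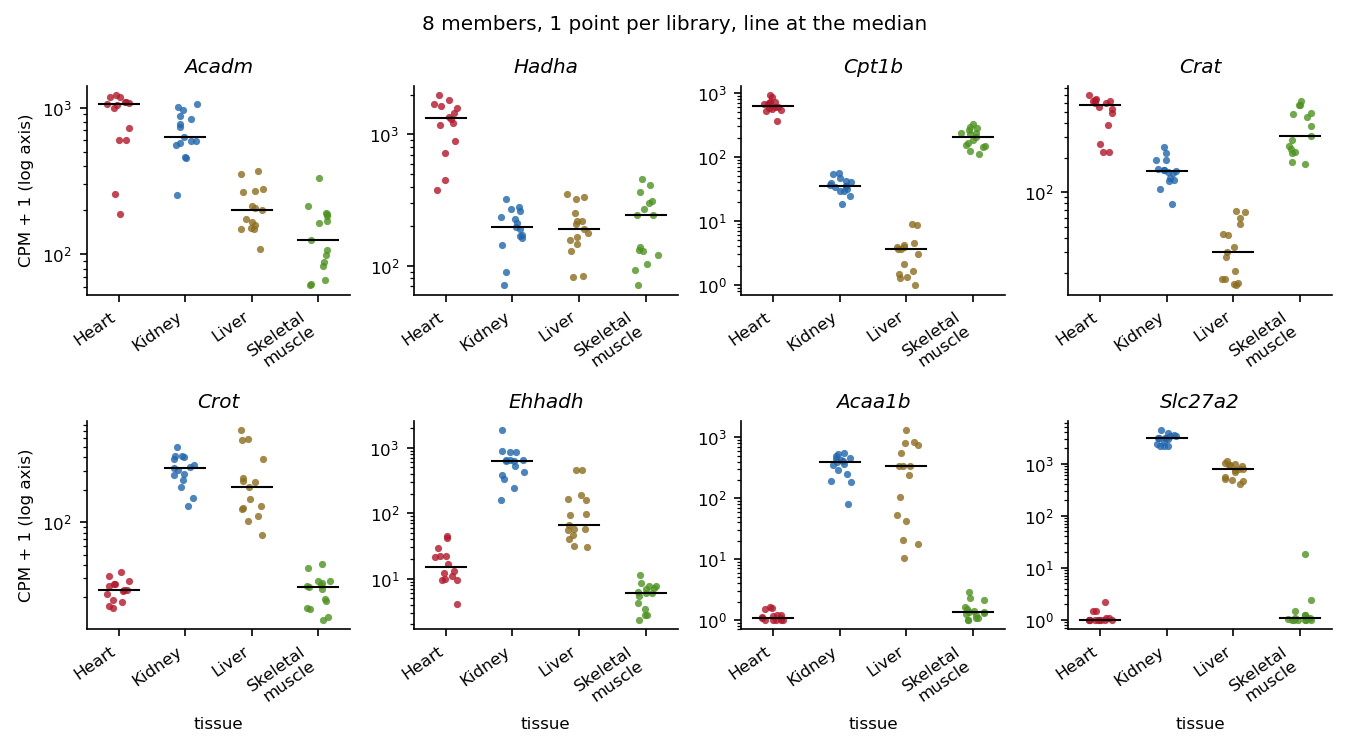
CPM + 1 on a log axis for 8 members, 1 point per library, with a line at the median, in heart, kidney, liver and skeletal muscle. Cpt1b separates all 4 tissues, Crat has its highest median in heart and Crot in kidney, and Acaa1b spans the widest range in liver, from 9.60 to 1305 CPM.

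In the carnitine shuttle, Cpt1b separated the 4 tissues completely. Cpt1b is the muscle form of carnitine palmitoyltransferase 1, the gate of mitochondrial entry. It had 366, 621 and 904 CPM in heart, 111, 204 and 322 in skeletal muscle, 17.7, 34.5 and 54.3 in kidney and 0, 2.59 and 8.12 in liver, with no overlap between neighbours. Heart minus skeletal muscle was 1.18 ± 0.29 (edgeR adjusted p = 0.000455) and kidney minus liver 3.21 ± 0.32 (edgeR adjusted p = 1.88e-13). Cpt2, which releases the acyl group inside the mitochondrion, spread far less, with medians of 230, 169, 113 and 39.5 CPM in heart, kidney, liver and skeletal muscle. Slc25a20, the carnitine-acylcarnitine carrier, had medians of 151, 62.4, 67.2 and 40.3 CPM in that order.

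Of the 2 carnitine acyltransferases of short and medium chains, Crat was higher in heart and skeletal muscle and Crot in kidney and liver, while kidney had the higher median than liver for both. Crat, carnitine acetyltransferase, had 223, 572 and 692 CPM in heart, 176, 308 and 616 in skeletal muscle, 78.6, 152 and 248 in kidney and 14.6, 29.4 and 68.2 in liver. Crot, the peroxisomal carnitine octanoyltransferase, had 139, 314 and 492 CPM in kidney, 75.0, 211 and 709 in liver, 11.4, 23.9 and 39.99 in skeletal muscle and 15.0, 22.6 and 33.3 in heart. The median ratio of Crot to Crat CPM was 10.4 in liver (2.01 to 15.6), 1.91 in kidney (1.04 to 2.87), 0.0441 in heart and 0.0790 in skeletal muscle. Crat was higher in kidney than in liver by 1.60 ± 0.22 (edgeR adjusted p = 4.27e-09) and did not pass the test between heart and skeletal muscle (0.06 ± 0.22, edgeR adjusted p = 0.824). That difference was -0.06 ± 0.26 without the 6 skeletal muscle libraries above 30% mitochondrially encoded counts. Crot passed neither between kidney and liver (-0.39 ± 0.25, edgeR adjusted p = 0.17) nor between heart and skeletal muscle (-0.51 ± 0.25, edgeR adjusted p = 0.0823).

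Etfa and Etfb encode the 2 subunits of the electron transfer flavoprotein, and Etfdh the oxidoreductase that hands the electrons to ubiquinone. Etfa had 125, 550 and 649 CPM in heart and 101, 261 and 364 in kidney. Etfb had 316, 420 and 699 CPM in heart and 218, 370 and 550 in kidney, and Etfdh had 96.4, 471 and 635 in heart and 29.0, 120 and 193 in kidney. All 3 genes were called higher in heart than in kidney and in skeletal muscle. Against kidney the difference was -0.74 ± 0.24 for Etfb (edgeR adjusted p = 0.00585) and -2.43 ± 0.27 for Etfdh (edgeR adjusted p = 4.61e-12). Between liver and heart, Etfa and Etfdh passed the test and Etfb did not (-0.36 ± 0.24, edgeR adjusted p = 0.175).

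The 2 subunits did not follow each other as Hadha and Hadhb did. In heart libraries 13 and 14 Etfa was at its lowest, 125 and 127 CPM, where Etfb was at 699 and 578 CPM, its highest. The other 12 heart libraries had Etfa from 306 to 649 CPM. Pearson r of Etfa with Etfb was -0.81 in heart (rho -0.48, permutation p = 0.00173 and 0.0875, n = 14) and -0.39 without the 2 libraries farthest from the median Etfa, so the relation rests on them. In skeletal muscle r was -0.50 and rho -0.61 (permutation p = 0.058 and 0.0176), in kidney -0.40 and -0.41 (p = 0.144 and 0.13 by permutation), and in liver 0.42 and 0.40 (permutation p = 0.118 and 0.14). Adjusted over the 8 subunit relations, rho gave 0.117 in heart and 0.0282 in skeletal muscle.

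The ratio of Etfa to Etfb moved with the mitochondrially encoded share. It ran from 0.178 to 1.55 in heart, 0.298 to 1.28 in kidney, 0.377 to 1.69 in liver and 0.246 to 1.75 in skeletal muscle. Pearson r of the log2 ratio with that share was -0.95 in heart, -0.84 in kidney, -0.74 in skeletal muscle and -0.53 in liver, and rho was -0.87, -0.81, -0.60 and -0.44. The permutation p of r was 0.00015, 6e-05, 0.00335 and 0.0388, and 0.0006, 0.00048, 0.00893 and 0.0776 after adjustment over 8 ratio relations. The p of rho by permutation was 0.00013, 0.00036, 0.0208 and 0.101, and 0.00104, 0.00144, 0.0556 and 0.202 after the same adjustment, so that rho in skeletal muscle and liver did not pass. Without the 2 libraries of most extreme share, r was -0.72, -0.79, -0.67 and -0.27. Skeletal muscle library 2 stood against the pattern, with a ratio of 0.256 at the lowest share, 4.67%, and 440 CPM of Etfb. The ratio of Hadhb to Hadha gave r of -0.34, -0.24, 0.31 and -0.03 with the same share in heart, kidney, skeletal muscle and liver (permutation p = 0.25, 0.39, 0.252 and 0.907). RNA quality was not analysed here, and the part of the mitochondrially encoded share in other results was not tested except where a value is given.

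**Figure D4:**
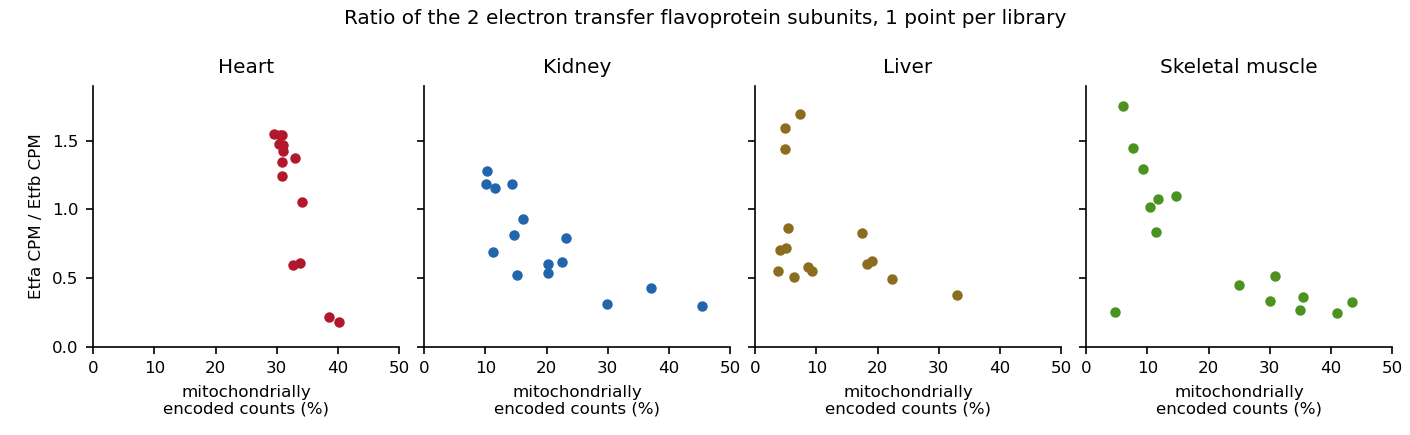
Etfa CPM divided by Etfb CPM against the percentage of counts from mitochondrially encoded genes, 1 point per library, in heart, kidney, liver and skeletal muscle. The lowest heart ratios, 0.178 and 0.220, are libraries 13 and 14 at the highest shares, 40.2% and 38.6%.

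All 5 genes of the peroxisomal spiral were called higher in kidney and in liver than in heart and in skeletal muscle. Ehhadh, the bifunctional hydratase and dehydrogenase for dicarboxylic chains, led in kidney. It had 158, 629 and 1847 CPM there, 29.8, 65.5 and 460 in liver, 3.04, 13.9 and 44.2 in heart and 1.35, 5.00 and 10.6 in skeletal muscle. The kidney libraries lay above every heart and skeletal muscle library, and kidney library 11 stood at 1847, with the next at 887. Kidney minus liver was 1.67 ± 0.35 (edgeR adjusted p = 3.59e-05) and heart minus skeletal muscle 1.47 ± 0.36 (edgeR adjusted p = 0.000367).

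Acox2, the oxidase of branched chains and bile acid intermediates, was found mostly in kidney and liver among these 4 tissues. It had 33.6, 63.7 and 140 CPM in kidney and 42.7, 89.8 and 226 in liver, against at most 1.52 in heart and 3.22 in skeletal muscle. Kidney minus liver was -1.19 ± 0.33 (edgeR adjusted p = 0.00165) and -0.59 on totals (edgeR adjusted p = 0.171). A library with 0 counts of a gene in these tissues allows up to 0.169 to 0.453 CPM (3 counts, counting error only). Hsd17b4, the bifunctional enzyme for very long and branched chains, had closer medians, 196 CPM in kidney, 199 in liver, 77.5 in heart and 36.4 in skeletal muscle.

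The 2 peroxisomal thiolases differed most. Acaa1a had 102, 174 and 207 CPM in kidney, 106, 209 and 759 in liver, 56.8, 73.9 and 106 in heart and 31.7, 42.1 and 106 in skeletal muscle. Acaa1b had 80.01, 396 and 553 CPM in kidney and 9.60, 340 and 1305 in liver, and at most 0.632 in heart and 1.88 in skeletal muscle. Acaa1b therefore spanned 136-fold among liver libraries, and its difference between kidney and liver did not pass the test (-0.62 ± 0.45, edgeR adjusted p = 0.238). The genes are close copies: 21.6% of the 100-base windows of the longest Acaa1a transcript (GENCODE M21) also occur in Acaa1b. Of their counts above 0, 95.8% for Acaa1a and 100% for Acaa1b were not whole numbers, beside 26.8% over all genes, so the split between them is uncertain.

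The windows before the 2 start sites are shown because one thiolase is in all 4 tissues and the other is not. CCAAT boxes (CCAAT, either strand) and GC boxes are in capitals, on chromosome 9 of GRCm38.p6: Acaa1a at chr9:119341044-119341293 on the plus strand and Acaa1b at chr9:119157094-119157343 on the minus strand.
Acaa1a: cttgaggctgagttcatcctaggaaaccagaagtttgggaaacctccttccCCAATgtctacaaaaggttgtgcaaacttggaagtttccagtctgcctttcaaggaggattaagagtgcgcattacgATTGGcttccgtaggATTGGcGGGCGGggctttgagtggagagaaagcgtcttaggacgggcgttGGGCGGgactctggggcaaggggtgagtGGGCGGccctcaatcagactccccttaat
Acaa1b: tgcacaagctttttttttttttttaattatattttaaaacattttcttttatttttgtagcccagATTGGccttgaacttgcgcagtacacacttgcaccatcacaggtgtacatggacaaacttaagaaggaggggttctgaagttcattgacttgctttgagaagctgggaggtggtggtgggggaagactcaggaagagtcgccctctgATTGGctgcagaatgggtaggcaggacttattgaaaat
The Acaa1a window has a G and C content of 53.6% and 6 marked motifs, GC boxes among them. The Acaa1b window has 41.6% and 2 marked motifs, both CCAAT boxes. CCAAT was found in 11 of 24 members (45.8%) and in 37.5% of all genes.

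Of the peroxisome membrane genes, Pex11a and Abcd3 were called higher in kidney and in liver than in heart and in skeletal muscle. Pex11a, a factor of peroxisome proliferation, had medians of 68.2 CPM in kidney, 46.9 in liver, 19.3 in heart and 6.44 in skeletal muscle, and kidney library 11 reached 215 CPM. Abcd3, a carrier of branched and dicarboxylic acyl-CoA, had medians of 259, 258, 75.1 and 44.5 CPM in those tissues. Abcd2, a carrier of very long chains, had low medians in all 4, at 1.92, 5.73, 3.19 and 12.7 CPM. Its liver range ran from 0.114 to 102 CPM, with 102, 55.2 and 42.9 in liver libraries 1, 2 and 3 and 17.6 or less in the others. Kidney library 1 held 29.4 CPM of Abcd2, the highest in kidney, and also the highest summed adipocyte markers, 1016 CPM beside a kidney median of 190. It was also the only kidney library with 0 CPM of the Y-linked gene Ddx3y. The part of adipocytes, or of whatever else set this library apart, in the Abcd2 value was not tested.

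Slc27a2, a very-long-chain acyl-CoA synthetase that also takes up fatty acids, was the most tissue-bound member. It had 2174, 3050.0 and 4349 CPM in kidney and 411, 777 and 1140 in liver, with no overlap, and kidney minus liver was 1.34 ± 0.55 (edgeR adjusted p = 0.0334; DESeq2 adjusted p = 0.069). In heart it was at 0 in 9 of 14 libraries and at most 1.20 CPM. In skeletal muscle it was at most 1.41 CPM except in library 12, with 17.0 CPM. That library also held 2301 CPM of Alb, the albumin gene of hepatocytes, and 2980 CPM of the 6 hepatocyte markers, beside a skeletal muscle median of 21.8. Its part in the value was not tested. The Slc27a2 window, chr2:126552774-126553023 on the plus strand (GRCm38.p6), is shown with the half-site in capitals.
Slc27a2: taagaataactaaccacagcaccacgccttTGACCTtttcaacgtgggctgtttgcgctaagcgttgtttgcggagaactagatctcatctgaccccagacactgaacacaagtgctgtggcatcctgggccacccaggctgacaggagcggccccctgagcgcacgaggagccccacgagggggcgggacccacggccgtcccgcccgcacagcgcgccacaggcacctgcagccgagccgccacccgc

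Acsl1, a long-chain acyl-CoA synthetase, had its highest medians in heart and liver. It had 179, 622 and 851 CPM in heart, 54.0, 361 and 887 in liver, 71.6, 228 and 563 in kidney and 36.1, 94.6 and 245 in skeletal muscle. Heart and liver overlapped over almost their whole ranges and did not pass the test (liver minus heart -0.52 ± 0.28, edgeR adjusted p = 0.0942). Heart minus skeletal muscle was 1.92 ± 0.29 (edgeR adjusted p = 9.41e-08).

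Genes of the pathway outside the 30 members were counted by list, beside the shares of all genes given above. Of 11 citrate cycle genes, 11 were higher in heart than in kidney and 0 in kidney. This list is outside the rule by which other genes are named, and its 2 largest differences were picked after their values were seen. Cs, citrate synthase, had medians of 205 CPM in kidney and 981 in heart, and Ogdh 476 and 2327. Of 23 other peroxisomal genes, 17 were higher in liver than in heart, 3 were lower and 3 were not called. Among them Pecr, the trans-enoyl-CoA reductase, had 84.8 CPM in liver and 4.56 in heart, and Hacl1, which shortens 2-hydroxy acids, 50.1 and 6.33.

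Of 5 ketone body genes, 2 were higher in liver than in heart, 2 were lower and 1 was not called. Oxct1, which uses ketones, had medians of 4.55 CPM in liver and 640 in heart (edgeR adjusted p = 1.2e-26). Of 5 genes of CPT1 isoforms and malonyl-CoA control, 1 was higher in kidney than in skeletal muscle, 2 were lower and 2 were not called. Cpt1a, the liver form of the gate that Cpt1b forms in muscle, had medians of 339 CPM in kidney and 4.87 in skeletal muscle, and Acacb, which makes the inhibitor malonyl-CoA, 35.3 and 254.

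Of 9 regulators of the PPAR and PGC-1 family, 0 were higher in kidney than in heart, 4 were lower and 5 were not called by edgeR. Pparg had medians of 3.98 CPM in kidney and 10.0 in heart. Of 4 tested genes of carnitine synthesis and uptake, 2 were higher in kidney than in liver and 1 was lower. Slc22a5, the carnitine importer, had 189 CPM in kidney and 22.7 in liver, and Bbox1, the last enzyme of carnitine synthesis, 0.825 and 67.0. All 6 Cyp4a genes of omega oxidation were higher in kidney than in heart, where Cyp4a10 had a median of 377 CPM in kidney and at most 0.545 in heart. These genes are near copies of one another, and their split is uncertain.

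Of 6 thioesterases, 3 were higher in kidney than in heart, 2 were lower and 1 was not called. Acot12, an acetyl-CoA hydrolase, had a median of 136 CPM in kidney and at most 0.873 in heart. Of 11 genes of uptake and activation, 6 were higher in liver than in heart and 5 were lower. Fabp1, the liver fatty acid binding protein, had 1195 CPM in liver and at most 1.31 in heart, and Fabp3, the heart form, 2242 CPM in heart and at most 0.852 in liver. Of 6 other acyl-CoA dehydrogenases, 3 were higher in liver than in heart, 2 were lower and 1 was not called. Acad12 had 6.33 CPM in liver and 124 in heart.

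The members were then related to Pou5f1, which encodes the reprogramming factor Oct4. Within each tissue a slope was fitted by edgeR's quasi-likelihood test as log2 change per unit of log2(Pou5f1 CPM + 1). Pou5f1 ran from 0 to 18.5 CPM in kidney, 0 to 199 in liver, 0 to 13.01 in heart and 0 to 6.45 in skeletal muscle. The genotype of each library is unknown, so strain and Pou5f1 level cannot be told apart. Correlations of log2(CPM + 1) were computed for 30 members in 4 tissues, 120 relations, and their permutation p-values are given unadjusted beside edgeR's, which are adjusted over all genes.

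In liver, 3 of 29 tested members were called with a negative slope and 0 with a positive one, beside 6.14% and 7.52% of all 10481 genes. By sign alone, 25 slopes were negative and 4 positive, where the median slope of all genes was -0.005. On plain CPM, rho with Pou5f1 was below 0 for 21 of 30 members and above 0 for 9. The called members were Crot, Ehhadh and Abcd2. The other genes of the peroxisomal spiral and membrane were not called. Their rho with Pou5f1 was 0.05 for Acaa1a, -0.23 for Pex11a, -0.27 for Acox2, -0.45 for Hsd17b4, -0.48 for Abcd3 and -0.57 for Acaa1b. Crot stood at 709, 573 and 383 CPM in liver libraries 1, 2 and 3, where Pou5f1 was 0, and at 163, 132, 75.0 and 113 CPM in libraries 10, 11, 12 and 4, where Pou5f1 was 63.4, 83.4, 43.6 and 199 CPM. Low Pou5f1 did not always go with high Crot: library 9, at 0.494 CPM of Pou5f1, held 140 CPM. The slope was -0.31 ± 0.07 (edgeR adjusted p = 0.0118), with r of -0.71 and rho of -0.81 (permutation p = 0.00373 and 0.00046, n = 15), and r of -0.69 without libraries 4 and 11.

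Ehhadh in liver stood at 452, 163 and 460 CPM in libraries 1, 2 and 3 and at 45.1, 31.0, 29.8 and 53.9 in libraries 10, 11, 12 and 4. Its slope was -0.38 ± 0.08 (edgeR adjusted p = 0.0102), with r of -0.69 and rho of -0.79 (permutation p = 0.00494 and 0.00071, n = 15) and r of -0.67 without libraries 4 and 11. Abcd2, high in libraries 1 to 3 as given above, had a slope of -0.51 ± 0.15 (edgeR adjusted p = 0.0305), with r of -0.57 and rho of -0.77 (permutation p = 0.0256 and 0.00116, n = 15) and r of -0.65 without libraries 4 and 11. Library 1 also differed from the other liver libraries by 0 CPM of the Y-linked Ddx3y. With Ddx3y as a covariate the 3 calls held, with slopes of -0.30, -0.36 and -0.45.

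Without libraries 10, 11 and 12 the liver calls of Crot and Ehhadh were lost, and Abcd2 did not pass the filter on low counts and was not tested. Then 0 of 28 tested members and 1 gene in all were called, and the slopes of Crot and Ehhadh were -0.31 ± 0.11 and -0.32 ± 0.12 (edgeR adjusted p = 0.366 and 0.39). Acaa1b, not called in the full fit (-0.33 ± 0.14, edgeR adjusted p = 0.121; DESeq2 adjusted p = 0.0474), was at 19.8, 16.7 and 9.60 CPM in those libraries, its lowest liver values, and at 341 in library 4, which had the highest Pou5f1. Acsl1 was at 54.0, 60.3 and 70.6 CPM in libraries 10, 11 and 12 and at 557 in library 4. The hepatocyte markers summed to 66768, 76407 and 75709 CPM in libraries 10 to 12, beside a liver median of 76407.

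**Figure D5:**
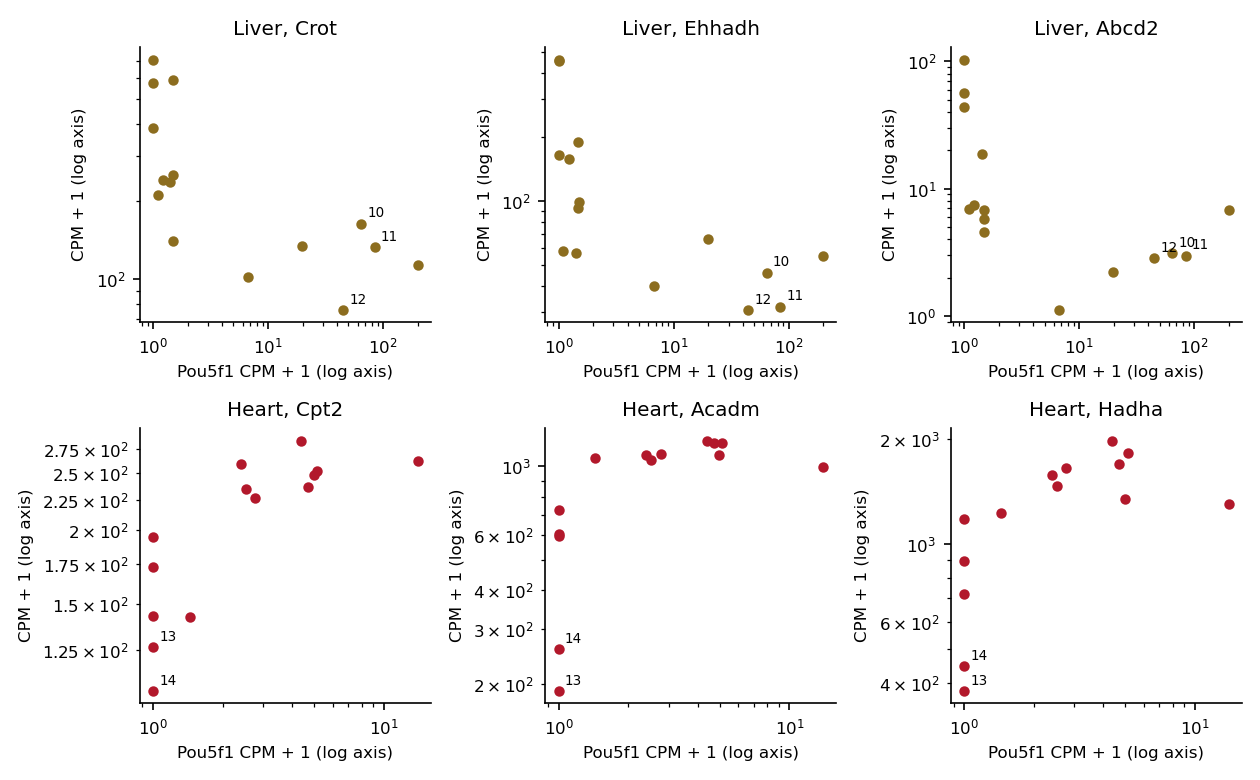
CPM + 1 against Pou5f1 CPM + 1, both on log axes, 1 point per library, for Crot, Ehhadh and Abcd2 in liver and Cpt2, Acadm and Hadha in heart, with liver libraries 10 to 12 and heart libraries 13 and 14 numbered. Liver levels fall from left to right, while in heart the 5 libraries at 0 CPM of Pou5f1 hold 189 to 723 CPM of Acadm and the other 9 hold 998 to 1210.

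In heart, 0 of 27 tested members were called by edgeR, beside 0.348% positive and 1.54% negative calls of all 11785 genes. At an unadjusted p of 0.05, 20 of 27 members and 2651 genes in all passed. DESeq2 called 8 members, all positive, and 312 genes positive and 452 negative. The median slope of the tested members was 0.26, where that of all genes was -0.03. Cpt2 had 142, 172, 126, 106 and 193 CPM in heart libraries 1, 3, 13, 14 and 15, where Pou5f1 was 0, and 142 to 283 in the other 9. Its slope was 0.26 ± 0.07 (edgeR adjusted p = 0.0722), with r of 0.80 and rho of 0.81 (permutation p = 0.00063 and 0.0009, n = 14). Acadm had 598, 723, 189, 257 and 604 CPM in those 5 libraries and 998 to 1210 in the other 9, with no overlap, and a slope of 0.37 ± 0.14 (edgeR adjusted p = 0.154, r = 0.65, rho = 0.73, permutation p = 0.00985 and 0.0051, n = 14).

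The same heart libraries differed in mitochondrially encoded share. Pou5f1 correlated with that share at r of -0.62 and rho of -0.56 (permutation p = 0.0167 and 0.0415, adjusted over 4 tissues 0.067 and 0.166, n = 14). With the share as a covariate the median slope of the members was 0.05 and that of Acadm 0.02 ± 0.08 (edgeR adjusted p = 0.948). Without libraries 13 and 14 the median slope was 0.15 and Acadm's was 0.19 ± 0.08 (edgeR adjusted p = 0.354). The 5 cardiomyocyte markers summed to 34160 and 30403 CPM in libraries 13 and 14, within the heart range of 19694 to 39140. Adipocyte markers summed to 1080.5 and 1050.0 CPM there, beside a median of 318. Only 2 of the 5 adipocyte markers had a heart median of at least 1 CPM, and the part of adipocytes was not tested.

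In kidney, 0 of 29 tested members were called, as were 0 of all 12462 genes (0%). At an unadjusted p of 0.05, 5 members and 595 genes passed, and DESeq2 called 0 members and 3 genes. Eci1 had the highest rho, 0.71 (r = 0.53, permutation p = 0.00411 and 0.0426, n = 15), with a slope of 0.27 ± 0.11 (edgeR adjusted p = 0.934). In skeletal muscle, 0 of 27 tested members and 0 of 9955 genes (0%) were called by edgeR, 1 member and 336 genes passed an unadjusted p of 0.05, and DESeq2 called 0 members and 9 genes. No more than 6.45 CPM of Pou5f1 was reached there, in library 12.

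Slopes were also compared between tissues in one fit of all 4. Ehhadh differed between kidney and liver by 0.65 ± 0.15 (edgeR adjusted p = 0.0488), beside 0.0445% of 15719 genes called in that direction, and between liver and heart by -0.98 ± 0.19 (edgeR adjusted p = 0.0112), beside 0.274%. The slopes fitted within a tissue were 0.28 ± 0.12 in kidney, -0.38 ± 0.08 in liver and 0.57 ± 0.16 in heart, of which the liver slope alone was called. Slc27a2 differed between kidney and skeletal muscle and between liver and skeletal muscle, beside 2.05% and 2.83% of all genes in the same direction, with skeletal muscle library 12 highest for both Pou5f1 and Slc27a2.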

How the data were processed

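The deposited table holds estimated counts per gene for 96 libraries. Per the submitters' processing notes, the genome build was GRCm39 and the authors used DESeq2. An aligner or counter was not given in the sources used here. RNA came from frozen tissue by TRIzol, per the labels' protocols. Libraries were assigned to a tissue from the column name. Estimated counts were rounded for tests. CPM used the library totals, 6624470 to 17706700 in the 59 libraries of 4 tissues, where 3 counts are 0.169 to 0.453 CPM. Intervals and floors cover counting error only.

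Tissue pairs were tested in one fit with edgeR 4.0.16 (R 4.3.3; TMM, filterByExpr, quasi-likelihood test, Benjamini-Hochberg adjustment over 15720 genes, threshold 0.05). Pou5f1 slopes were fitted within each tissue with a pseudocount of 1 CPM. Correlations used 100000 permutations in scipy 1.17.1 and were given only with n of 14 or 15. The fits were tested on simulated data. No 2 libraries of one tissue held identical values.

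The 30 members are all named. Other pathway genes were counted by list, naming at most 3 per list, those with the largest difference. Members and lists were chosen with earlier results of these data known. Alternatives tried were library totals, TMM without mitochondrially encoded genes, no filter, DESeq2 1.42.0, a pseudocount of 0.5 CPM, a covariate of mitochondrially encoded share, and leaving out the 2 libraries of highest Pou5f1. Chosen after seeing the data were leaving out heart libraries 13 and 14, liver libraries 10 to 12 or skeletal muscle libraries over 30% mitochondrially encoded, the Ddx3y covariate, the running number of the columns as a replicate block, the slope differences and the subunit ratios. Promoter windows of 250 bases came from RefSeq (GRCm38.p6), which held 24 of the 30 members. The genotype of each library was not used here because column names do not carry it.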

Additional observations from a re-analysis of the deposited data

Results flagged for a closer look

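In spleen, the tissue with 7 libraries, 6 of 30 members had 1 library far from the others. The limit used is meant to pass about 1 in 20 by chance, for normal values and independent genes. Plain CPM near 0 and genes flagged in the same library do not meet this, so the 6 were not weighed against chance. Library 2 held 7.98 CPM of Acox2 (next 0.138), 21.8 CPM of Acaa1b (next 2.14) and 20.3 CPM of Slc27a2 (next 5.37). The same library held 3324 CPM of Alb and 4649 CPM of the 6 hepatocyte markers, beside a spleen median of 27.5, and their part in these values was not tested. Acads was 9.23 CPM in library 7 (next 27.8), Decr1 was 16.4 CPM in library 8 (next 22.2), and Pex11a was 14.6 CPM in library 4 (next 7.65).

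Of 180 differences between tissues in the slope on Pou5f1, 4 passed edgeR's quasi-likelihood test with Benjamini-Hochberg adjustment. For Ehhadh, the slope in kidney minus that in liver was 0.65 (edgeR adjusted p = 0.0488) and in liver minus heart -0.98 (edgeR adjusted p = 0.0112). For Slc27a2, kidney minus skeletal muscle was -2.52 (edgeR adjusted p = 7.22e-06, beside 2.05% of all genes called negative) and liver minus skeletal muscle -2.66 (edgeR adjusted p = 2.53e-08, beside 2.83%). Skeletal muscle library 12 has the highest Pou5f1 of that tissue, 6.45 CPM, and 17.0 CPM of Slc27a2 where the next library has 1.41, and its part in these differences was not tested.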

How the results depend on the processing

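Of 1022 values of 146 member contrasts under 7 alternatives, 981 kept their direction and side of the threshold, and 116 contrasts did so under all 7. The 146 are the contrasts called in the main fit and 3 uncalled ones. Those 3 are Crat in heart minus skeletal muscle, Acaa1b in kidney minus liver and Acaa2 in liver minus heart. Other uncalled contrasts were left out, so calls gained under an alternative are mostly not counted here. Direction reversed for 4: on library totals, Acadvl (0.032) and Echs1 (0.16) in kidney minus liver and Acadvl (0.39) in kidney minus skeletal muscle, and Crat in heart minus skeletal muscle (-0.059) without skeletal muscle libraries over 30% mitochondrially encoded and with the replicate block (-0.016). On totals, 7302 genes were higher in kidney and 2094 in liver, with 3 members higher in liver, 2718 were higher in heart than in kidney, 9701 in kidney and 2128 in skeletal muscle, with 25 and 3 members, and 2362 in skeletal muscle than in heart. Without a filter, 7965 genes were higher in skeletal muscle than in liver. Median CPM of the members by tissue was also compared between scales. Without mitochondrially encoded counts, 32 medians moved by at least the standard deviation over libraries and 88 did not. With TMM scaling 11 moved and 109 did not.

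For Pou5f1 slopes, totals gave 1 positive gene in kidney, 333 negative in liver, 60 negative in heart and 2 positive in skeletal muscle. Without a filter there were 10 positive and 1 negative in kidney, 1283 positive in liver, 65 positive in heart, and 328 positive and 4 negative in skeletal muscle, with 1 member positive. DESeq2 gave 3 positive in kidney, 1200 positive and 1194 negative in liver with 5 members negative, 312 and 452 in heart with 8 members positive, and 7 and 2 in skeletal muscle. A pseudocount of 0.5 CPM gave 127 positive and 403 negative in heart, with 2 members positive. Without the 2 libraries of highest Pou5f1 there were 1160 negative in liver, and 12 positive and 51 negative in heart. The mitochondrially encoded share as covariate gave 0 and 0 in heart, as did leaving out heart libraries 13 and 14, and the Ddx3y covariate gave 20 positive. Without liver libraries 10, 11 and 12 there were 1 positive and 0 negative genes and 0 members. The cause was not tested, beyond fewer libraries where some were left out. Counts limit Acox2, Acaa1b and Slc27a2 in heart, where no library held more than 17, 8.38 and 11 counts.

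The columns carry a running number in each tissue, and no label says what it marks. Over all genes tested, the deviations of same-numbered libraries from their tissue means correlated from -0.11 to 0.50 in 87 pairs, with 65 above 0.1, and in 25 of 87 the best match in the other tissue had the same number. By tissue pair the median was 0.13 to 0.26 for same-numbered libraries, beside -0.038 to -0.023 for libraries of different numbers. Same-numbered libraries thus deviated together more than others did. In the 4 compared tissues the Y-linked Ddx3y was at 0 CPM in library 1 alone and at 29.6 CPM or more in every other library. Spleen library 1 and brain libraries 1 and 2 were also at 0, while small intestine library 1 held 44.4 CPM. What the number marks is not known, so the main fit did not take it as a pairing and treated libraries as independent. Whether tissues share animals was not settled. In a fit chosen after seeing the data, the number served as a replicate block. There 144 of the same 146 member contrasts kept direction and call, and all 24 counts of called genes and members stayed within 1.5 times. The exceptions were Crat, as above, and Pex11a in heart minus skeletal muscle (0.62, edgeR adjusted p = 0.0625). The Pou5f1 slopes are within a tissue and allow no such block.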
